A study of Mus musculus with 96 samples.

Results

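Cytosolic ribosomal protein genes were followed in the livers of calorie-restricted and control mice of 6 strains. They were taken by symbol, as the Rpl and Rps genes followed by a digit, Rplp0 to Rplp2 and Rpsa, without pseudogenes and without the ribosomal S6 kinases. A probe set had to be annotated to a single gene, and each gene was represented by its probe set of highest mean log2 signal. By this rule 50 genes were found among the 18193 genes that had a probe set of their own, and 47 of them, 24 of the large subunit, 22 of the small subunit and Rps19bp1, passed the filter on low signal. Rps19bp1 encodes a binding partner of a small-subunit protein and is held here by its symbol only. Rpl22l1, Rpl7l1, Rps27l and Rps4l are paralogs named after a ribosomal protein. Rpl39l, Rpl3l and Rps16 did not pass the filter. The one probe set of Rps16 had a mean log2 signal of 1.90.

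The annotation left out many ribosomal protein genes, because their probe sets are also assigned to pseudogenes or other genes. A further 31 genes with such symbols were named on shared probe sets only and are described below as a group, without names. The study measured liver RNA of 96 male mice on single-colour Affymetrix arrays, and per the labels each array held the RNA of an individual mouse. Restricted mice of CBA/J, DBA/2J, 129S1/SvImJ, C3H/HeJ, C57BL6/J and B6C3F1/J, a first-generation cross between the parents C57BL6/J and C3H/HeJ, were compared with control mice of the same strain, with 8 mice in each of the 12 groups. All mice were housed singly from 6 weeks of age and took a purified diet of 84 kcal per week for 2 weeks before the diets were split at 8 weeks. Restricted mice then received a diet with 25% fewer calories, control mice the control diet, and all livers were taken at 22 weeks. The groups carry no engineered allele per the labels.

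Ribosomal proteins line the outside of the ribosomal RNA of both subunits, and most are made in equal copies and built into the particle in the nucleolus. Their mRNAs are among the most abundant in liver, and typically begin with a C followed by a run of pyrimidines, the terminal oligopyrimidine or TOP tract, through which nutrient signalling by the kinase mTOR controls their translation. The arrays measured mRNA only, so translation is outside these values.

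The start of 8 genes that the results below turn on is shown here because the TOP tract lies at the transcription start. Each line holds 25 bases before and 25 bases from the annotated start, from RefSeq on build GRCm38.p6, on the strand of the gene, and capitals mark a C followed by at least 4 pyrimidines that begins within 10 bases of the start. In Rplp2, Rps18, Rps6 and Rpl14 such a run covers the start base with a C there. In Rpl22l1 a run begins just after it, and in Rpsa, Rps4x and Rpl7l1 these letters were not found in this window.
Rplp2 (chr7:141447626-141447675, plus strand): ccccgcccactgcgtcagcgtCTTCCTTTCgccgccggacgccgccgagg
Rps18 (chr17:33955641-33955690, minus strand): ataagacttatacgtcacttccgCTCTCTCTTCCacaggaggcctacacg
Rps6 (chr4:86857343-86857392, minus strand): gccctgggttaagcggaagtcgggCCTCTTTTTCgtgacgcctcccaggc
Rpl14 (chr9:120571492-120571541, plus strand): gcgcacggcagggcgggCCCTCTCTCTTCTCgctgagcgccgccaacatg
Rpl22l1 (chr3:28805483-28805532, plus strand): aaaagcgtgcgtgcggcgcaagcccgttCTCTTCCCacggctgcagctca
Rpsa (chr9:120127741-120127790, plus strand): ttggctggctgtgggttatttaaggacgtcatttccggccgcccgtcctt
Rps4x (chrX:102189367-102189416, minus strand): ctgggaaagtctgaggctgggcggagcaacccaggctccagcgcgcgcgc
Rpl7l1 (chr17:46782632-46782681, minus strand): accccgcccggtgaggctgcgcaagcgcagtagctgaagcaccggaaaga

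Promoter windows from 250 bases before to 50 bases after the start were at hand for 44 of the 50 genes and for 27025 genes in all. A C at the start base followed by at least 4 pyrimidines was present in 8 of the 44 genes (18.2%), against 3.01% of all genes. A run of this kind began within 10 bases of the start in 27 of the 44 (61.4%), against 34.4% of all genes. The sequence CCGGAAG, bound by ETS-family factors, lay on either strand in 21 of the 44 (47.7%), against 9.93% of all genes, and ATGGCGG, the core of the YY1 motif, in 7 (15.9%), against 4.69%. CACGTG, the E-box read by Myc, was found in 4 (9.09%), against 8.09%, and TATAAA in 6 (13.6%), against 15.7%. Motif matches may overlap one another, and each describes letters in the window and not a bound site. Of the 41 genes with a window that also passed the filter, the 8 with a pyrimidine run at the start base had a median diet difference of 0.16 on the log2 scale and 3 calls, all higher. The other 33 had a median of 0.15, with 12 called higher and 1 lower.

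Signals of these genes were among the brightest on the array: 36 of the 47 had a mean log2 signal of at least 13, and the means ran between 6.94 for Rpl12 and 15.94 for Rps29. A difference between probe sets is not a difference between mRNA levels, so genes are compared below only with themselves. Every array had been scaled by the authors to a trimmed mean of 500, but the array medians differed. An array of a restricted DBA/2J mouse (replicate 6) had a median log2 signal of 8.30 and that of a control B6C3F1/J mouse (replicate 2) one of 8.66, against at most 7.504 in the other 94. In the control B6C3F1/J mouse the mean over the 47 genes was 11.75, against 13.05 to 13.53 in the other 7 mice of its group. A restricted C57BL6/J mouse (replicate 2) stood apart with a mean of 13.44, against 12.92 to 13.06 in its group, and leaving it out moved no count of calls given below by over 1.5 times. Beyond these arrays, restricted CBA/J mice had higher array medians than control CBA/J mice (7.29 against 6.52 on average). Hepatocyte markers, of which 7 could be tested, ran between 15.31 and 18.44 in mean log2 signal over all arrays.

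**Figure D1:**
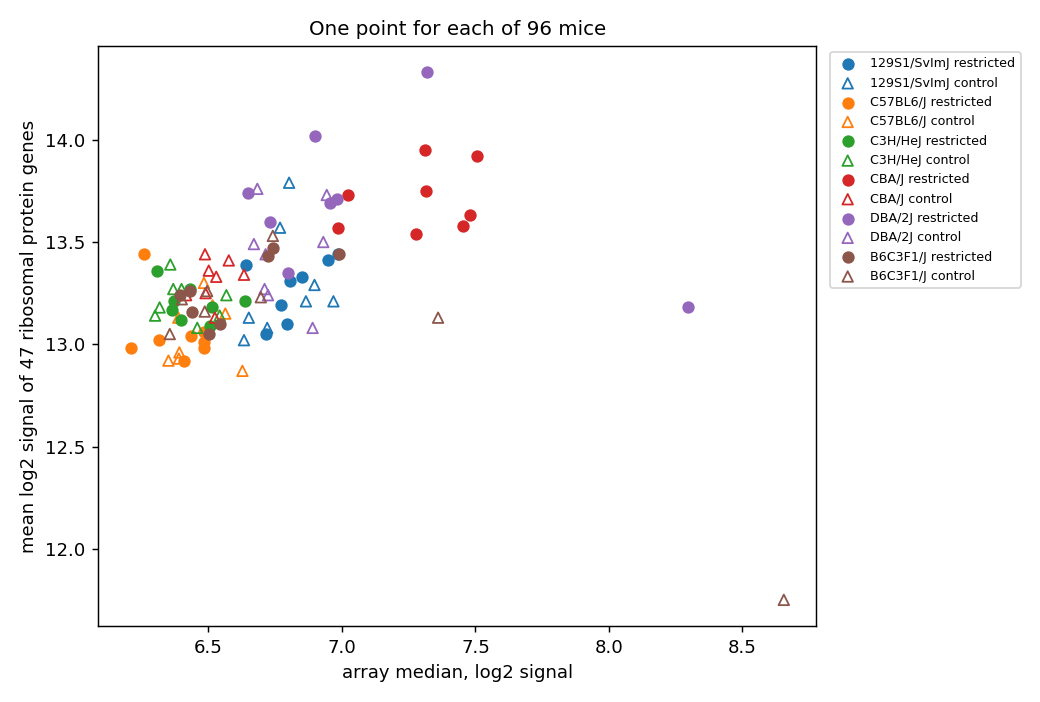
Mean log2 signal of the 47 ribosomal protein genes (y axis) against the median log2 signal of the whole array (x axis), 1 point for each of 96 mice, filled circles for restricted and open triangles for control mice. The 2 arrays far to the right have medians of 8.30 (DBA/2J restricted) and 8.66 (B6C3F1/J control), and restricted CBA/J mice form a cloud at higher medians than control CBA/J mice.

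Averaged over the 6 strains, calorie restriction raised the mRNA signal of 15 of the 47 genes and lowered that of 1, at adjusted p under 0.05 by limma with Benjamini-Hochberg adjustment over 14816 genes. Among all genes tested 15.2% were called higher and 12.4% lower. Among the 637 genes with a mean log2 signal of at least 13, 35.2% were called higher and 16.3% lower. Of the 36 ribosomal protein genes of that brightness, 14 (38.9%) were called higher and 0 lower. The median difference, restricted minus control, was 0.15 on the log2 scale over the 47 genes and 0.07 over all genes, and 38 of the 47 lay above 0. With quantile normalization the medians were 0.01 and 0.03, with 13 genes called higher and 3 lower (11.7% and 11.3% of all genes). Of large-subunit genes and their paralogs 9 of 24 were called higher and 1 lower, and of small-subunit genes 6 of 22 were called higher and 0 lower. The 15 were Rpsa, Rps4x, Rps18, Rps2, Rps26 and Rps28 of the small subunit, and Rpl22l1, Rpl41, Rpl27, Rpl37a, Rplp2, Rpl7a, Rpl37, Rpl35 and Rpl10a of the large. Without CBA/J mice 7 genes were called higher and 1 lower (9.36% and 8.11% of all genes), and 8 of the 16 calls were shared. Without both arrays of outlying median 22 were called higher and 1 lower (18.7% and 15.1% of all genes). Without these and CBA/J 11 were called higher and 1 lower (12.4% and 11.8% of all genes). The medians were then 0.04 over the 47 genes and 0.02 over all genes. The split also depended on the probe sets. Only 24 of the 47 genes have a kept probe set with a plain suffix, free of the letters a, s and x. The probe sets used were plain in 15 genes, of type a in 18, s in 2 and x in 12. With plain probe sets alone 2 were called higher and 4 lower (13.4% and 12.4% of all genes). Some of these were bright, as that of Rpl19 (mean log2 signal 14.7), and others dim. Those of Rps18, Rpl35 and Rpl41 had means of 5.36, 6.34 and 6.70, against 15.15, 14.32 and 15.31 for the ones otherwise used. The part of brightness in this split was not tested.

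Rpsa, a small-subunit protein also known as the laminin receptor precursor, had the largest averaged rise. Its log2 signal spanned 13.80 to 16.37 with a median of 14.46 in the 48 restricted mice, and 12.75 to 14.98 with a median of 14.10 in the 48 control mice. The averaged difference was 0.52 ± 0.08 (SE), a 1.43-fold signal (adjusted p = 3.4e-08 by limma), above 0 in all 6 strains. The groups overlapped in every strain other than CBA/J.

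In restricted CBA/J mice Rpsa ran between 15.03 and 16.03 with a median of 15.80, in control CBA/J mice between 14.01 and 14.52 with a median of 14.13. In DBA/2J it spanned 14.33 to 16.37 (median 14.73) in restricted mice and 13.99 to 14.82 (median 14.43) in control mice. Every restricted CBA/J mouse thus lay above every control CBA/J mouse, while the DBA/2J groups overlapped. The difference was 1.48 in CBA/J and 0.61 in DBA/2J, and between 0.05 and 0.49 in the other 4 strains.

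Rps4x, the X-linked copy of small-subunit protein S4, also differed most in CBA/J and next in DBA/2J. Its signal spanned 13.54 to 16.71 with a median of 14.96 in restricted mice, and 12.58 to 15.48 with a median of 14.70 in control mice. The averaged difference was 0.48 ± 0.08 (SE; adjusted p = 2.41e-06 by limma). In CBA/J its restricted values (15.71 to 16.71, median 16.13) lay above all control values (14.06 to 15.06, median 14.87), with a difference of 1.39.

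Rpl22l1 encodes a paralog of Rpl22, an RNA-binding large-subunit protein. Its signal spanned 12.28 to 15.76 with a median of 13.63 in restricted mice, and 10.94 to 15.10 with a median of 13.14 in control mice. The averaged rise was 0.48 ± 0.12 (SE; adjusted p = 0.000945 by limma). By strain the difference was 0.67 in 129S1/SvImJ, 0.82 in C57BL6/J, 0.37 in C3H/HeJ, 0.69 in DBA/2J and 0.87 in B6C3F1/J, but -0.55 in CBA/J, and none of these passed the test within its strain. In CBA/J restricted mice spanned 12.28 to 14.14 (median 12.89) and control mice 13.12 to 14.07 (median 13.54). The CBA/J effect was 1.24 below the mean of the other 5 strains on the log2 scale (difference -1.24 ± 0.32, SE; adjusted p = 0.00151 by limma), the reverse of Rpsa and Rps4x, whose CBA/J effects lay 1.15 and 1.10 above that mean. Rpl22 itself gave 3 answers from 3 probe sets. In a fit of every probe set, its brightest differed by 0.02 (adjusted p = 0.885), one of intermediate brightness by -0.36 (adjusted p = 0.0517) and the dimmest by -0.66 (adjusted p = 5.57e-17, by limma), the last below 0 in every strain.

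Rpl7l1, whose yeast relative Rlp7 is a factor in large-subunit assembly, was the single gene called lower in the average. Its log2 signal spanned 9.35 to 11.09 with a median of 10.34 in restricted mice, and 9.91 to 11.27 with a median of 10.63 in control mice. The averaged difference was -0.36 ± 0.06 (SE; adjusted p = 2.3e-06 by limma), and it lay below 0 in all 6 strains, between -0.81 in CBA/J and -0.04 in B6C3F1/J. In CBA/J restricted mice spanned 9.66 to 10.44 (median 9.89) and control mice 10.42 to 11.12 (median 10.69), so the groups overlapped only at their edges. All 3 of its probe sets were called lower in the fit of every probe set, and the averaged fall was called in each alternative that tested it.

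**Figure D2:**
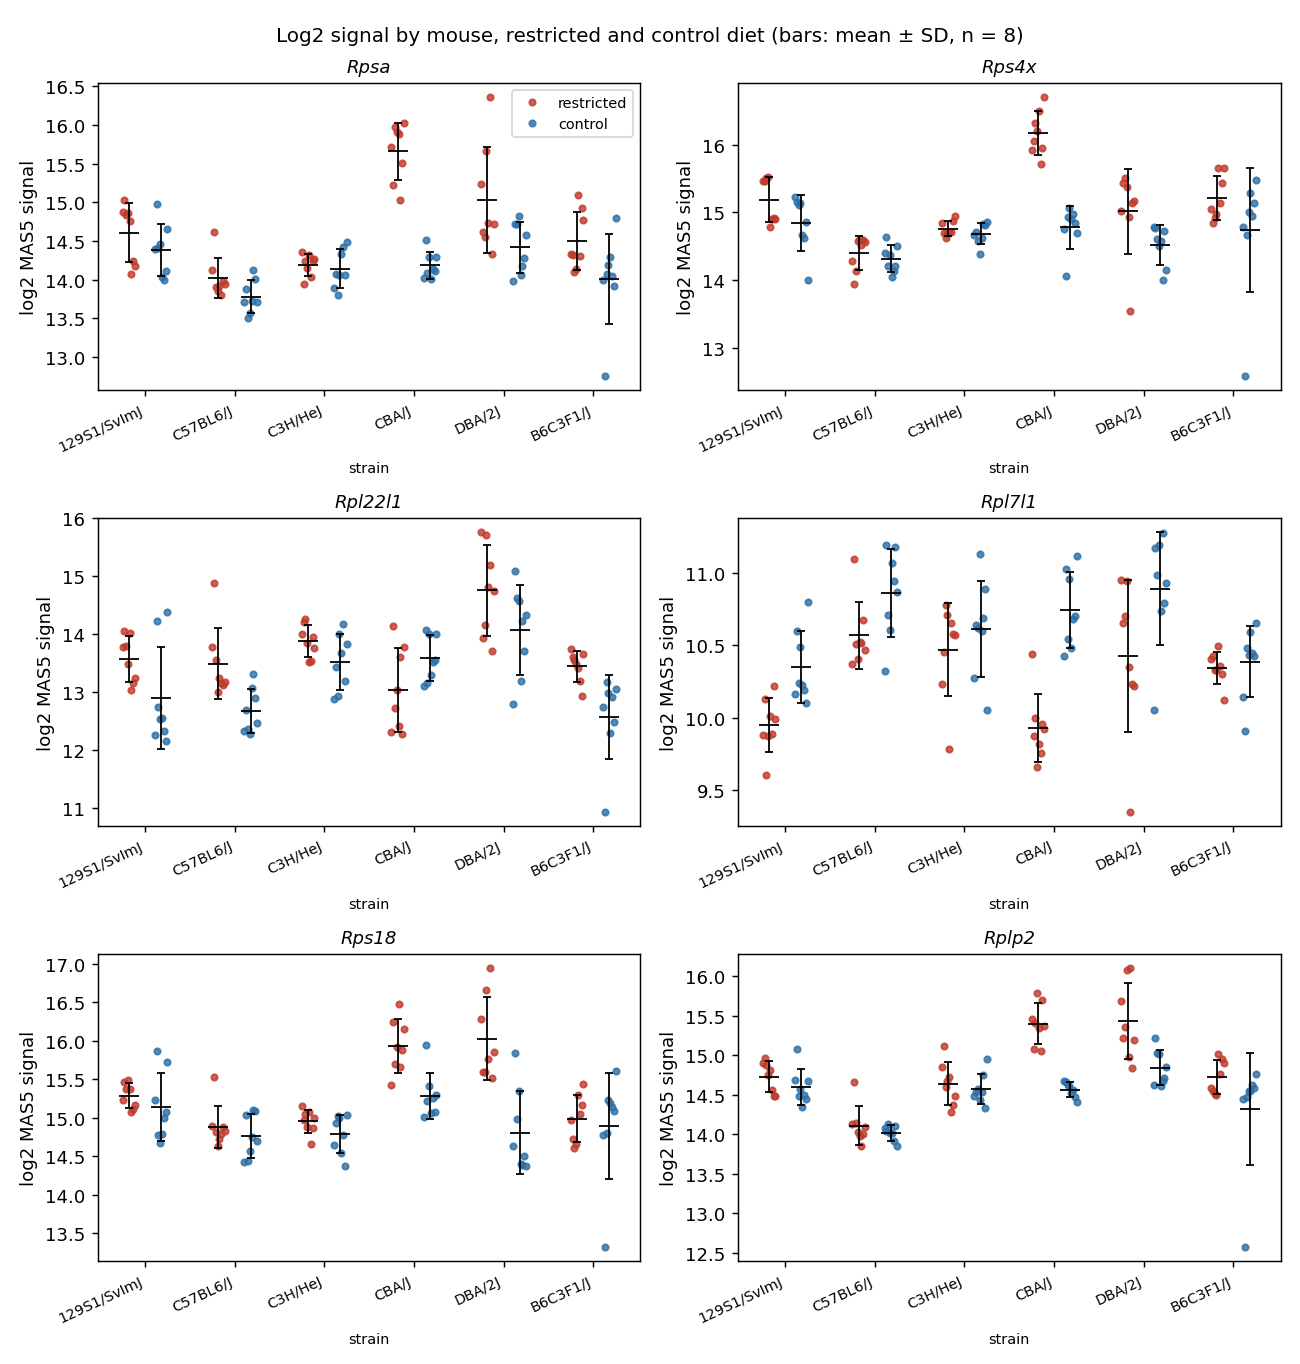
Log2 MAS5 signal (y axis) of 6 genes by strain (x axis), 1 point for each mouse, red for restricted and blue for control mice, with bars for mean ± SD (n = 8). In CBA/J, Rpsa, Rps4x and Rplp2 separate the diets without overlap, Rpl7l1 is lower in restricted mice, and Rps18 has its widest gap in DBA/2J.

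Among the further large-subunit genes that rose, Rpl41, which encodes a very short basic peptide, differed by 0.46 ± 0.15 (SE; adjusted p = 0.0111 by limma). Rpl27 differed by 0.42 ± 0.08 (adjusted p = 3.23e-06) and Rpl37a, a zinc-binding protein, by 0.39 ± 0.08 (adjusted p = 2.46e-05). The Rpl41 value rests on its brightest probe set, and the one without a suffix gave -0.18 (adjusted p = 0.495). Without CBA/J mice Rpl41 (0.38, adjusted p = 0.103) and Rpl37a (0.23, adjusted p = 0.061) no longer passed, nor did Rps26 (0.14, adjusted p = 0.376). In every alternative that tested them, Rpsa, Rps4x, Rpl22l1, Rpl27, Rplp2 and Rpl10a stayed called higher, 6 of the 15.

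The stalk of the large subunit recruits the factors that drive elongation. Rplp2, one of its acidic proteins, differed by 0.35 ± 0.07 (SE; adjusted p = 9.05e-06 by limma) and was above 0 in all 6 strains. In CBA/J it spanned 15.06 to 15.78 (median 15.39) in restricted mice and 14.40 to 14.68 (median 14.58) in control mice, with no overlap. Rplp0, the base of the stalk, differed by 0.15 (adjusted p = 0.23). In the restricted DBA/2J mouse with the outlying array median its log2 signal was 11.08, against 14.11 to 14.97 in its group, and without that mouse the difference was 0.22 (adjusted p = 0.00335). Rpl12, another protein of the stalk base, was near the array median in brightness and differed by -0.28 (adjusted p = 0.178).

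Of the small-subunit genes, Rps18 differed by 0.40 ± 0.08 (SE; adjusted p = 3e-05 by limma) and Rps26, a protein at the mRNA exit channel, by 0.30 ± 0.08 (adjusted p = 0.00221). The Rps18 value rests on 1 of 3 bright probe sets, and the others gave 0.07 (adjusted p = 0.639) and 0.05 (adjusted p = 0.761) in the fit of every probe set. Rps6, whose protein is the target of the S6 kinases downstream of mTOR, differed by -0.13 (adjusted p = 0.177). Rps27 differed by 0.13 and its paralog Rps27l, a target of p53, by 0.04, neither called, and Rps29, a zinc-binding protein of the small-subunit head, by 0.15 (adjusted p = 0.0659). Rps19bp1 differed by -0.20 without passing the test (adjusted p = 0.0579), with a value below 0 in each strain.

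**Figure D3:**
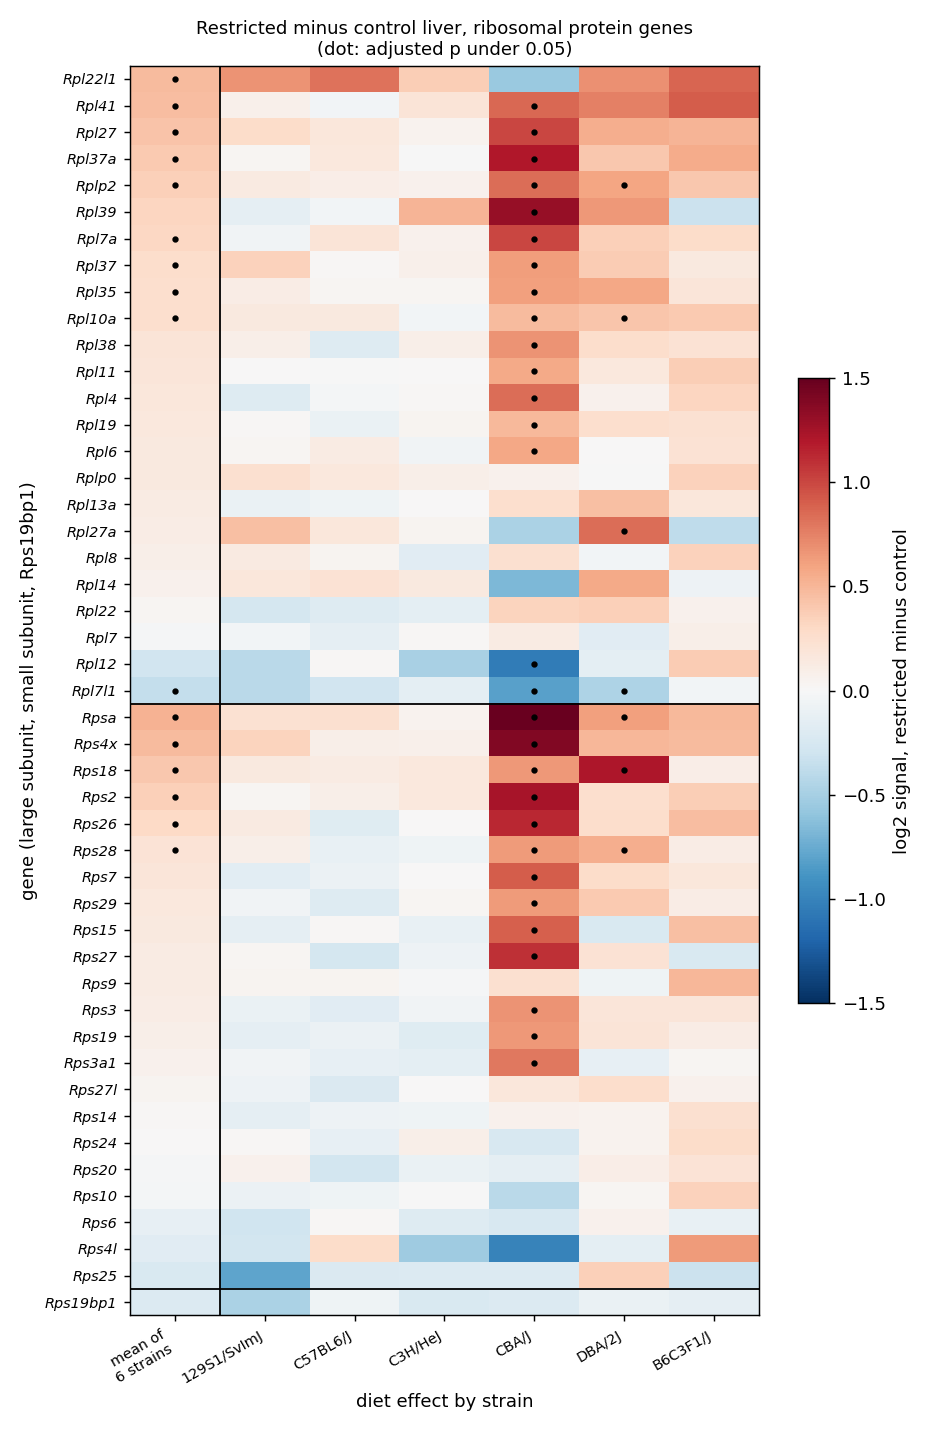
Difference in log2 signal, restricted minus control (colour, red higher and blue lower in restricted mice), for the 47 genes in rows and for the mean of the 6 strains and each strain in columns. Dots mark adjusted p under 0.05 by limma, and they fall in the mean, CBA/J and DBA/2J columns, with 16, 29 and 7 of them.

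The calls within strains came from CBA/J and DBA/2J. In CBA/J 27 of the 47 genes were called higher and 2 lower, against 25.1% and 15.6% of all genes, with a median difference of 0.58 against 0.31. When all 98 of their probe sets were tested 41 were called higher and 16 lower (41.8% and 16.3%), against 20.6% and 15% of all probe sets, with medians of 0.25 and 0.30. This split depended on how arrays were scaled: with quantile normalization 11 were called higher and 10 lower, against 13.6% and 17.3% of all genes, with a median of -0.01 over the 47 genes and 0.07 over all genes. With centring on the 75th percentile 17 were higher and 4 lower, against 17.8% and 17.6% of all genes, with medians of 0.44 and 0.17. Thus 10 of the 27 rises were called under both scalings, and Rpsa, Rps4x, Rps26, Rps19, Rplp2, Rpl37a and Rpl7a were called higher under every alternative that tested them. Rps29 turned: its difference was 0.64 as deposited and -0.47 after quantile normalization, called in both. With probe sets free of a letter suffix, some of them dim, 7 of 24 genes were called higher and 5 lower. Of all genes 23.8% were called higher and 14.9% lower, and the medians were -0.20 over the 24 genes and 0.32 over all genes. In 16 genes every restricted CBA/J mouse lay above every control CBA/J mouse, against 6.13% of all genes, and in none did every restricted mouse lie below (5.89% of all genes).

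**Figure D4:**
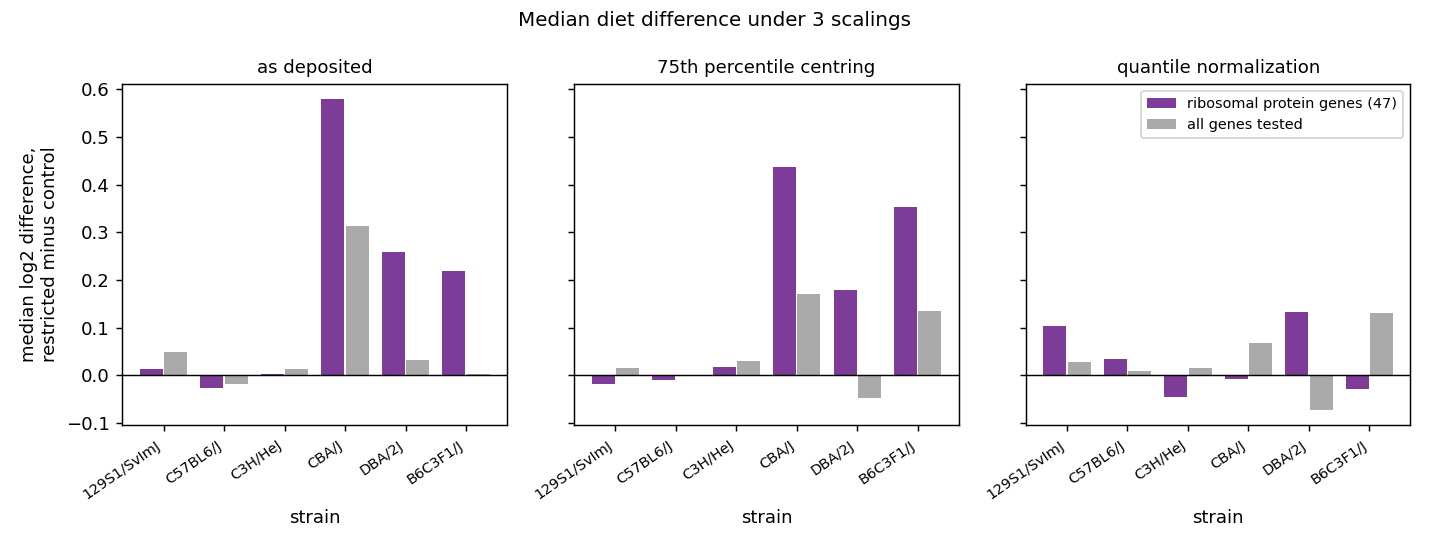
Median difference in log2 signal, restricted minus control (y axis), over the 47 ribosomal protein genes (purple) and all genes tested (grey) in each strain, for signals as deposited, centred on the 75th percentile and quantile normalized. The CBA/J median of the 47 genes is 0.58, 0.44 and -0.01 in the 3 panels.

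The largest rises in CBA/J were those of Rpsa (1.48), Rps4x (1.39) and Rpl39 (1.31), and the 2 falls were Rpl12 (-1.05 ± 0.38, SE; adjusted p = 0.0223 by limma) and Rpl7l1 (-0.81 ± 0.15; adjusted p = 9.9e-06). The fall of Rpl12 had a wide spread, with 3.59 to 7.95 (median 6.56) in restricted and 6.26 to 7.93 (median 7.57) in control mice, and the restricted values covered the whole control range. Several array-wide measures moved with the CBA/J diets. The array median was 7.29 in restricted and 6.52 in control mice. The 3′ minus 5′ log2 signal of Gapdh, a measure of RNA integrity and labelling, was -0.03 and -0.40, while that of actin differed less, at 1.26 and 1.18. All 7 hepatocyte markers tested rose, with a median of 1.80, and their mean log2 signal was 18.08 and 16.36. Of the markers of other liver and blood cells, 12 of 36 were called higher in CBA/J and 0 lower. Genes as bright as most ribosomal protein genes, with a mean log2 signal of at least 13, were called higher in 49.5% and lower in 11.8% of 637 cases, and the 36 ribosomal protein genes of that brightness in 24 and 0 cases. The part of these measures in the ribosomal protein values was not tested. In whole liver, fewer cells of a type and less RNA per cell cannot be told apart.

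In DBA/2J 6 of the 47 genes were called higher and 1 lower, against 2.3% and 4.45% of all genes. Rps18 differed most, by 1.22 ± 0.19 (SE; adjusted p = 4.84e-06 by limma), with 15.51 to 16.95 (median 15.81) in restricted and 14.38 to 15.84 (median 14.57) in control mice. The 2 groups overlapped at their edges. In the fit of every probe set the 2 other bright probe sets of Rps18 gave 0.03 (adjusted p = 0.967) and -0.21 (adjusted p = 0.715), so the difference was seen in 1 of 3. Rpl27a (0.84), Rpsa (0.61), Rplp2 (0.59), Rps28 (0.55) and Rpl10a (0.42) were the other rises, and Rpl7l1 (-0.47) the fall. Without the restricted mouse of outlying array median (replicate 6), whose Rpl27a signal of 12.99 was the highest of its group against a median of 10.3, 4 of these 7 no longer passed. They were Rpl27a (0.48, adjusted p = 0.264), Rpsa (0.42, adjusted p = 0.177), Rplp2 (0.49, adjusted p = 0.0508) and Rpl7l1 (-0.31, adjusted p = 0.241). Without that mouse 5 others were newly called higher: Rpl27, Rpl7a, Rps4x, Rps19 and Rps2. This gave 8 higher and 0 lower (2.26% and 2.8% of all genes), with a median of 0.35 over the 47 genes, against 0.26 with it. Rps28 was the single gene in which all restricted DBA/2J mice lay above all control DBA/2J mice (0.236% of all genes), at 15.04 to 16.54 against 14.64 to 14.99. Its 3 probe sets were all called higher in the average. Without both arrays of outlying median 11 genes were called higher and 0 lower in DBA/2J (3.91% and 4.42% of all genes). With the 2 DBA/2J groups fitted alone it was 1 and 0 (0.344% and 0.58%). With quantile normalization 8 were called higher and 0 lower (2.03% and 4.56%), and with 75th percentile centring 2 and 0 (1.19% and 3.97%). The array median averaged 7.08 in restricted and 6.78 in control DBA/2J mice, and the Gapdh 3′ minus 5′ value 0.10 and -0.29. Restricted replicate 6, with a Gapdh value of 2.51, weighs on these means. The medians of the groups were 6.93 and 6.72 for the array median and -0.25 and -0.38 for Gapdh. The part of either measure was not tested.

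With the probe set used for each gene, no gene of the set passed within the other 4 strains by limma. In the fit of every probe set, the dimmest of Rpl22 was called lower in 129S1/SvImJ (-0.76, adjusted p = 9.77e-05). It was also called lower in C3H/HeJ (-0.55, adjusted p = 0.0249, by limma). In B6C3F1/J 1 probe set of Rpl41 was called higher (0.89, adjusted p = 0.0384) and 1 lower (-1.07, adjusted p = 0.0256). In 129S1/SvImJ, where 2.79% of all genes were called higher and 2.47% lower, an unadjusted p under 0.05 was reached by Rpl22l1 (higher) and by Rpl7l1 and Rps19bp1 (lower). In C57BL6/J, with 1.86% and 1.85% of all genes called, it was reached by Rpl22l1 alone, and in C3H/HeJ, with 1.1% and 0.85%, by 0 genes. In B6C3F1/J, with 3.35% and 1.26%, 9 genes reached it, all higher, among them Rpsa (0.49), Rps4x (0.47) and Rpl22l1 (0.87). Without the control B6C3F1/J mouse of outlying array median (replicate 2) 1 gene reached it, Rpl22l1 (0.64), while Rpsa gave 0.31 and Rps4x 0.16. The median over the 47 genes was then 0.00 (0.0027), against 0.22 with that mouse. Each strain fitted alone gave 0 calls in these strains other than 1 higher in C57BL6/J, where 4.83% of all genes were then called higher.

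The effect of diet differed between strains in 19 of the 47 genes by the interaction F test of limma, against 23.9% of all genes. With quantile normalization 11 were called (18.6% of all genes) and with 75th percentile centring 4 (19.7%). Rpsa (adjusted p = 0.000135), Rpl37a (0.00136), Rps4x (0.00168) and Rps26 (0.00203) had the smallest adjusted p of the interaction. Without CBA/J mice 1 gene was called (1.55% of all genes). When the diet effect in CBA/J was set against the mean of the other 5 strains, 20 genes were called higher and 3 lower, against 18.7% and 13.6% of all genes. The 3 were Rpl22l1 (-1.24), Rpl14 (-0.88) and Rpl7l1 (-0.55). In the like comparison for DBA/2J, Rps18 was the single call (0.98 higher than in the other 5 strains, adjusted p = 0.0101 by limma), against 0.081% of all genes called higher and 0.587% lower. Here too Rps18 was represented by 1 of its 3 bright probe sets, and the others were not tested in this comparison. In the other 4 strains this comparison gave 0 calls, against 0.391% higher and 0.668% lower of all genes in 129S1/SvImJ, 0.304% and 0.391% in C57BL6/J, 0.0742% and 0.0405% in C3H/HeJ, and 0.229% and 0.054% in B6C3F1/J.

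Strains differed among control mice in 35 of the 47 genes (43.6% of all genes) and among restricted mice in 44 (66.3%), by the F test of limma, and 34 genes were called on both diets. The median range between the highest and lowest strain mean was 1.18 on the restricted and 0.75 on the control diet, against 1.20 and 0.93 over all genes. C57BL6/J had the lowest mean of the 6 strains in 31 genes on the restricted and 22 on the control diet. B6C3F1/J had the lowest in 2 and 17, and in 2 and 4 without both arrays of outlying median, where C57BL6/J had it in 32 and 30. DBA/2J had the highest in 19 and 24 genes. CBA/J was highest in 21 genes on the restricted diet and in 7 on the control diet. How often each strain was highest or lowest among all genes was not counted, nor was this order recomputed under another scaling. C57BL6/J also had the lowest mean hepatocyte marker signal, at 15.68 in restricted and 15.92 in control mice. Restricted CBA/J mice had the highest array median (7.29) and marker mean (18.08). The part of these measures in the strain order was not tested.

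Rps6 had the smallest adjusted p of both strain tests (1.24e-16 in restricted and 1.54e-13 in control mice, by limma) and ran against that order. Its probe set, with a mean log2 signal of 8.72, averaged 9.83 ± 0.23 in restricted and 9.81 ± 0.28 in control C57BL6/J mice, and 9.08 ± 0.21 and 9.19 ± 0.40 in B6C3F1/J (SD, n = 8 each). In C3H/HeJ, the other parent of that cross, it averaged 8.37 ± 0.21 and 8.56 ± 0.23, so the cross lay between its parents on both diets. The restricted and control means were 8.22 and 8.47 in CBA/J, 8.43 and 8.37 in DBA/2J and 7.99 and 8.29 in 129S1/SvImJ, so with C3H/HeJ these 3 strains lay between 7.99 and 8.56, with SDs of 0.21 to 0.45. Rps6 had 1 kept probe set, so no other could be compared. Strain tests can differ between probe sets: those of Rps9 gave 3.03e-36, 0.0332 and 0.0134 on the control diet (adjusted p by limma). Whether the Rps6 difference lay in its mRNA or in its probe set was not tested.

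Rpl14 was high in 2 strains and Rpl22l1 in 1. Rpl14, a large-subunit protein, had control means of 8.23 ± 0.22 in CBA/J and 8.21 ± 0.35 in DBA/2J, which did not differ beyond their spread, against 6.60 ± 0.36 to 7.19 ± 0.67 in the other 4 strains (SD, n = 8 each). On the restricted diet the DBA/2J mean was 8.78 ± 0.63, and restricted CBA/J mice scattered between 6.02 and 8.53. Rpl22l1 averaged 14.76 ± 0.78 in restricted and 14.07 ± 0.78 in control DBA/2J mice, above the 13.04 to 13.89 and 12.58 to 13.59 of the other strains' means. Rplp2 was highest in DBA/2J and lowest in C57BL6/J on both diets, at 15.43 and 14.11 in restricted and 14.84 and 14.01 in control mice. Rps29 was lowest in C57BL6/J, at 15.17 ± 0.18 in restricted and 15.37 ± 0.20 in control mice, while the other strains' means spanned 15.81 to 16.69 and 15.70 to 16.11. Rps19bp1 was highest in C3H/HeJ, at 9.66 ± 0.22 in restricted and 9.89 ± 0.11 in control mice, and lowest in C57BL6/J, at 8.85 ± 0.24 and 8.92 ± 0.39.

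**Figure D5:**
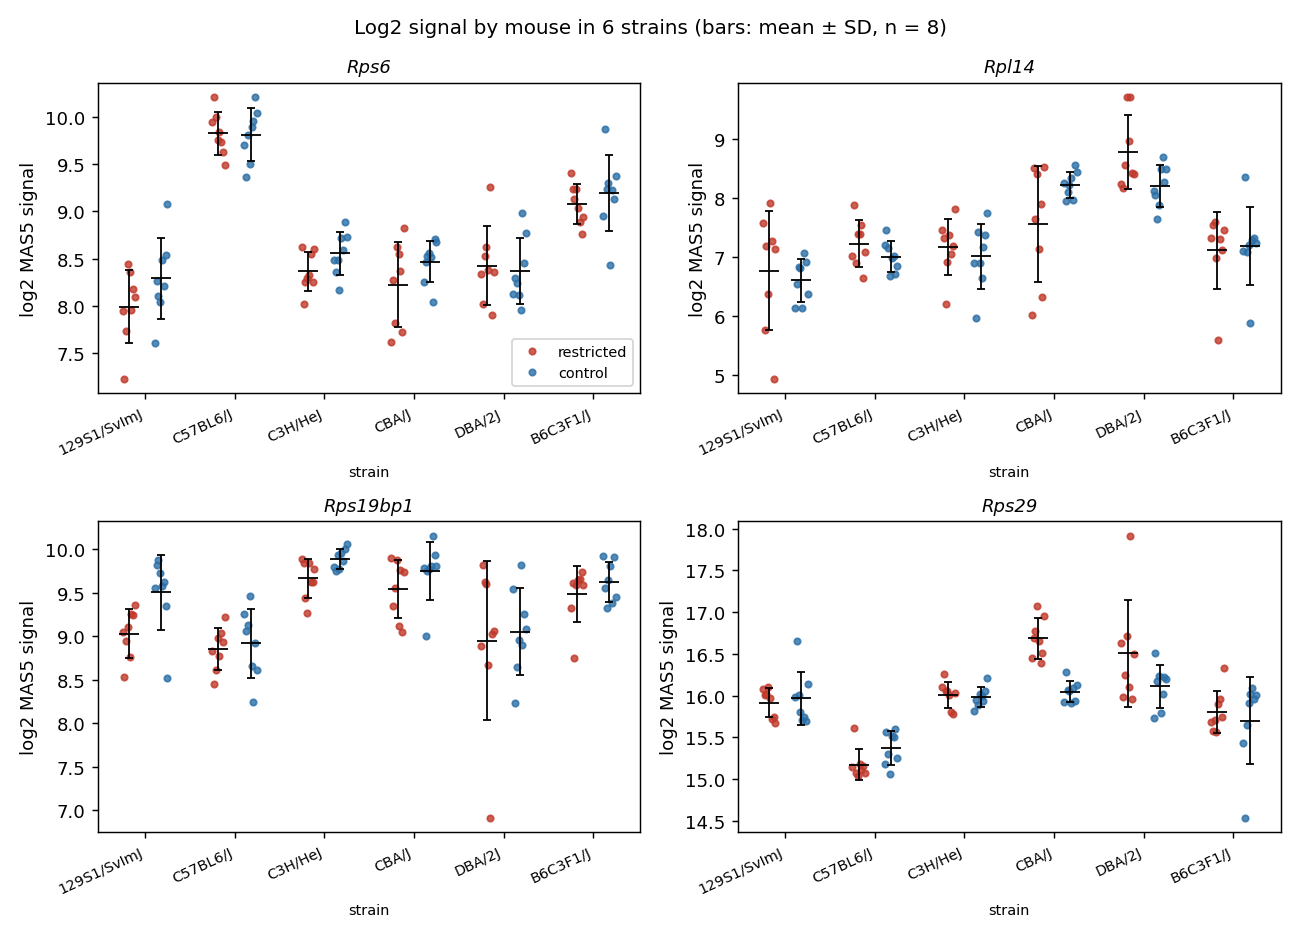
Log2 MAS5 signal (y axis) of 4 genes by strain (x axis), 1 point for each mouse, red for restricted and blue for control mice, with bars for mean ± SD (n = 8). Rps6 is high in C57BL6/J and intermediate in B6C3F1/J, Rpl14 is high in DBA/2J and control CBA/J mice, and Rps29 is low in C57BL6/J.

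Within groups most of the genes moved together from mouse to mouse. Over deviations of the 96 arrays from their group means, the median Pearson correlation between pairs of the 47 genes was 0.39, against 0.00 (-0.0041) among 2000 genes drawn from all. The arrays of outlying median were included, and the 2000 genes were not matched for brightness. What either adds to the correlation was not tested. The arrays share their scaling, and the median correlation with the array median was -0.35 over the 47 genes and 0.06 over all genes. In 35 genes the correlation with the mean of the other members was above 0.5, with Rpl19 at 0.92. It was near or below 0 in Rps25 (-0.31), Rpl27a (-0.27), Rpl14 (-0.13), Rpl39 (-0.13), Rps6 (-0.08), Rps27 (-0.03), Rpl12 (-0.00) and Rps19bp1 (0.02), all of which had a mean log2 signal below 13. The median SD between mice of a group was 0.41 over the 47 genes, with 0.25 in Rpl10a at the low end and 1.03 in Rps4l at the high end, and 0.61 over all genes.

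Probe sets other than those chosen carried the same genes. In a fit of each of 32999 probe sets, the 98 of these genes gave 22 higher and 9 lower calls in the diet average, against 11% and 11.7% of all probe sets. Of the 21 genes with several kept probe sets none had calls in both directions in the diet average, but 4 did in CBA/J (Rpl27, Rpl35, Rps24 and Rps3) and 1 in B6C3F1/J (Rpl41). In CBA/J the probe sets of Rpl27 gave 0.999 (adjusted p = 7.16e-06), -0.25 (adjusted p = 0.33) and -0.71 (adjusted p = 0.00156), the first being the brightest and the one used here. Rps20 and Rps3 had probe sets called lower that were dim, while the bright ones used here were not called. Brighter ones were called lower too. One of Rpl13a (mean log2 signal 10.73) gave -0.47 in the average (adjusted p = 0.000431) and -2.34 in CBA/J (adjusted p = 1.03e-11, by limma). One of Rps24 (12.42) gave -0.32 (adjusted p = 0.023) and -1.74 (adjusted p = 9.63e-08). The probe sets of Rpl13a and Rps24 used here were not called. A further 106 kept probe sets named a ribosomal protein gene together with others. Of these 36 were called higher and 2 lower in the average, 48 and 15 in CBA/J (against 20.6% and 15% of all probe sets), and 17 and 0 in DBA/2J, where 1.93% of all probe sets were higher and 3.45% lower.

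Lists of genes around the ribosome behaved in various ways in the diet average, where 15.2% of all genes were called higher and 12.4% lower. Mitochondrial ribosomal protein genes, whose products form the separate ribosome of the mitochondrion, had 20 called higher and 6 lower of 76, with a median of 0.08. Mrps28 rose by 0.51 and Mrps36 by 0.35 on the log2 scale. Of ribosome biogenesis factors 20 of 57 were called lower and 4 higher, with a median of -0.13, 17 lower and 4 higher after quantile normalization, and 17 lower and 1 higher without CBA/J. Dkc1, the pseudouridine synthase of ribosomal RNA, differed by -0.52 (adjusted p = 1.45e-10 by limma), whereas Heatr1, a component of the small-subunit processome, rose by 0.79 (adjusted p = 7.98e-13). Of RNA polymerase I subunits 1 of 17 was called in each direction, Polr1c (0.21) and Twistnb (-0.17), and neither call held under centring on the 75th percentile.

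Of translation initiation factors 13 of 29 were called lower and 2 higher, with a median of -0.16, among them the cap-binding protein Eif4e (-0.36) and the eIF2 subunit Eif2s3x (-0.36). These stayed called under both scalings and without CBA/J. Without CBA/J 8 factors of the list were called lower and 1 higher, against 8.11% and 9.36% of all genes. Of elongation factors 2 of 9 were called in each direction, but 0 higher and 4 lower after quantile normalization, 0 and 2 with 75th percentile centring and 0 and 1 without CBA/J. Eef1a1, which brings aminoacyl-tRNA to the ribosome, differed by 0.27 (adjusted p = 0.00527), but by 0.04 after quantile normalization and 0.05 without CBA/J, and Eef1e1, of the aminoacyl-tRNA synthetase complex, by -0.53 (adjusted p = 8.9e-07). Of genes that control mTOR and TOP mRNAs 6 of 22 were called higher and 3 lower. Sesn3, a sestrin that restrains mTOR complex 1, rose by 0.42 and Larp4, a La-related protein that binds poly(A), differed by -0.53. Fau, a small-subunit protein made as a fusion with a ubiquitin-like peptide and outside the symbol rule, differed by 0.16 (adjusted p = 0.172) in the average and 0.75 in CBA/J (adjusted p = 0.00283).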

How the data were processed

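The deposited values are MAS5 intensity signals on a linear scale per the submitters' processing notes, and each array had been scaled by the authors to the same trimmed mean of 500. A version of MAS5 was not given in the sources used here, and log2 signals were analysed. Probe sets at or above their array's median on at least 8 of 96 arrays were kept, 32999 of 45101, which left 14816 genes after 64 control probe sets and those with several symbols (932) or none (9211) were set aside. Group means of 12 groups were fitted with limma 3.58.1 (R 4.3.3; lmFit, eBayes with trend and robust variances, 84 residual degrees of freedom), with Benjamini-Hochberg adjustment over all 14816 genes and calls at adjusted p under 0.05. The code was tested on simulated data.

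The replicates are separate mice, and their number limits the precision. Members and gene lists were chosen with earlier results of these data known. Named genes were the 6 largest called rises and falls of the averaged diet effect, the 4 smallest adjusted p of the interaction, the 6 of the strain test on the control diet, the largest called rise and fall of each strain, the stalk proteins, Rps6 and members with a paralog, and 2 genes of each list. Other genes named in the report were singled out after their values were seen. Alternatives covered scaling, filter, offset, probe set choice, variance moderation, array weights, samples in the fit, a replicate block, the array median as a covariate, CBA/J left out and single arrays left out. The replicate numbers of restricted and control mice of a strain did not pair them: 5 of 48 correlations of same-numbered mice were above 0.1, and the range was -0.171 to 0.14.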

Additional observations from a re-analysis of the deposited data

Results flagged for a closer look

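For each named gene, the mean of the 47 genes and the array median, the highest and lowest mouse of every group of 8 was compared with the rest by Dixon's test. Of 252 group values 49 held a mouse far from the others, and chance gives about 5%.

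Many came from the control B6C3F1/J mouse of replicate 2, whose array median was 8.655 and whose mean over the 47 genes was 11.75. Its log2 signal was low in Rpl22 (12.62), Rpl22l1 (10.94), Rpl27 (11.56), Rpl37a (12.39), Rpl41 (10.61), Rplp0 (12.5), Rplp2 (12.57), Rps18 (13.32), Rps26 (11.44), Rps27l (12.19), Rps29 (14.53), Rps4x (12.58) and Rpsa (12.75). The restricted DBA/2J mouse of replicate 6, with an array median of 8.295, was low in Rpl27 (12.56), Rpl7l1 (9.349), Rplp0 (11.08), Rps19bp1 (6.913), Rps26 (12.82) and Rps4x (13.54), and high in Rps29 (17.92). The restricted C57BL6/J mouse of replicate 2 had a mean of 13.44 and was high in Rpl22 (15.38), Rpl22l1 (14.88), Rpl37a (15.05), Rpl41 (15.54), Rpl7l1 (11.09), Rplp2 (14.66), Rps18 (15.53), Rps27l (15.31), Rps29 (15.62) and Rpsa (14.61), and low in Rpl12 (5.674).

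Other mice stood apart in fewer genes. The control CBA/J mouse of replicate 2 was high in Rpl22 (15.64) and Rps18 (15.95) and low in Rps19bp1 (8.997) and Rps4x (14.06). Restricted CBA/J mice stood apart in Rpl27 (14.58, replicate 6) and Rpl7l1 (10.44, replicate 1). Control DBA/2J mice were low in Rpl12 (5.234) and Rpl7l1 (10.05), both replicate 1, and in Rpl41 (11.95, replicate 7). Restricted B6C3F1/J mice were low in Rpl14 (5.589, replicate 5) and Rps19bp1 (8.748, replicate 3). Control 129S1/SvImJ mice were high in Rplp2 (15.08) and Rps29 (16.65), both replicate 2, and low in Rps19bp1 (8.517, replicate 8).

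The effect of diet differed between strains in 10 of 19 named genes by the interaction F test of limma, against 23.9% of all genes. Some named genes were chosen for a small p of this test, so the count was partly fixed by that choice. The adjusted p by this test was 0.0351 for Rpl22l1, 0.0333 for Rpl27, 0.00136 for Rpl37a, 0.0465 for Rpl7l1 and 0.0206 for Rplp2. It was 0.00231 for Rps18, 0.00203 for Rps26, 0.0207 for Rps29, 0.00168 for Rps4x and 0.000135 for Rpsa. Effects spanned -0.55 in CBA/J to 0.87 in B6C3F1/J for Rpl22l1, 0.10 in B6C3F1/J to 1.22 in DBA/2J for Rps18, and 0.05 in C3H/HeJ to 1.48 in CBA/J for Rpsa.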

How the results depend on the processing

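Of the counts of called genes recomputed under 18 alternatives, 246 stayed within 1.5 times the count given and 53 did not, and the cause was not tested. Shares of all genes called under the same setting stand in parentheses. Quantile normalization gave 3 lower in the diet average (11.3%), 3 higher in C57BL6/J (1.6%) and 11 interaction calls (18.6%). It gave 11 higher (13.6%) and 10 lower (17.3%) in CBA/J and 0 lower in DBA/2J (4.56%). Centring on the 75th percentile gave 17 higher (17.8%) and 4 lower (17.6%) in CBA/J. In DBA/2J it gave 2 higher (1.19%) and 0 lower (3.97%), and there were 4 interaction calls (19.7%). With no filter DBA/2J had 0 lower (3.34%), and with the stricter filter the average had 2 lower (17.8%) and B6C3F1/J 2 higher (5.47%). The mean of probe sets gave 4 lower in the average (12%) and 1 lower in 129S1/SvImJ (2.24%). It gave 4 lower in CBA/J (13.8%) and 0 lower in DBA/2J (3.55%). Probe sets with a plain suffix, some of them dim, test 24 members and gave 2 higher (13.4%) and 4 lower (12.4%) in the average. They gave 7 higher (23.8%) and 5 lower (14.9%) in CBA/J, 2 higher in DBA/2J (1.78%) and 6 interaction calls (21.6%). Strain calls were 14 on the control diet (40.3%) and 19 on the restricted diet (64.3%). Array weights gave 3 lower in the average (16.1%), and 3 higher (5.55%) and 1 lower (4.66%) in 129S1/SvImJ. They gave 2 higher (11.6%) and 5 lower (9.25%) in C57BL6/J, 4 lower in CBA/J (16.4%) and 0 lower in DBA/2J (3.19%). Strains fitted alone gave 1 higher in C57BL6/J (4.83%), and 1 higher (0.344%) and 0 lower (0.58%) in DBA/2J. The array median as a covariate gave 25 higher in the average (17.2%), and 10 higher (3.63%) and 0 lower (3.37%) in DBA/2J. Without CBA/J there were 7 higher in the average (9.36%), 0 lower in DBA/2J (4.35%) and 1 interaction call (1.55%).

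Without DBA/2J restricted replicate 6, DBA/2J had 0 lower (2.8%) and B6C3F1/J 3 higher (4.97%). Without B6C3F1/J control replicate 2, DBA/2J had 10 higher (3.52%). Further alternatives were chosen after seeing the data. Leaving out both arrays gave 1 lower in 129S1/SvImJ (4.23%), 4 lower in CBA/J (18%), and 11 higher (3.91%) and 0 lower (4.42%) in DBA/2J. Leaving out CBA/J too gave 1 lower in 129S1/SvImJ (4.59%) and 4 interaction calls (3.96%). DBA/2J then had 12 higher (4.14%) and 0 lower (5.09%). The replicate block gave 15 higher (15.3%) and 1 lower (12.5%) in the average, and 27 (25.2%) and 2 (15.7%) in CBA/J. In DBA/2J it gave 7 higher (2.33%) and 1 lower (4.56%), and it moved no count by over 1.5 times.

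Of 19 named genes, the averaged difference reversed in sign in 17 of 316 cases, all of genes not called as reported other than Rpl41. Rpl22 gave -0.15 with quantile normalization, -0.33 with the mean of probe sets, -0.36 with the plain suffix, -0.0636 with array weights, -0.0191 without B6C3F1/J control replicate 2 (and 0.0102 without DBA/2J restricted replicate 6), -0.0386 without CBA/J, -0.0326 without both arrays and -0.11 without CBA/J and both arrays. Rps27l gave -0.0716 with quantile normalization, -0.0247 with array weights, -0.0032 without B6C3F1/J control replicate 2 (and 0.0408 without DBA/2J restricted replicate 6) and -0.0336 without CBA/J and both arrays. Rps27 gave -0.0635 without CBA/J and -0.0351 without CBA/J and both arrays. Rps29 gave -0.083 with quantile normalization and -0.0171 without CBA/J and both arrays, and Rpl41 -0.18 with the plain suffix. Dim probe sets such as those of Rpl12, Rpl14 and Rps25 lie near the array median, which limits what their values can show.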
